A study of Mus musculus with 6 samples.

Results

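The heat shock genes Hspa1a, Hspa1b, Hspa8, Hsph1, Dnajb1, Hsp90aa1, Hsp90ab1, Hspd1, Hspe1 and Hsf1 were followed in RNA-seq libraries of bone marrow-derived macrophages. They were chosen by name, and all 10 were found among the 55401 genes of the table and passed the filter on low counts. The cells had been grown from mouse bone marrow with M-CSF, the macrophage growth factor, in both groups. The mutant group of 3 libraries carried the genotype label Lamtor5 knockdown, and the other 3 libraries were labelled WT; the labels give no strain, age or further treatment, and whether each library is an animal of its own is not stated. The study's description names the mutant HBXIPΔLysM, after HBXIP, another name of Lamtor5, and LysM, the lysozyme promoter that drives Cre recombinase in myeloid cells. Lamtor5 is a subunit of Ragulator, which anchors mTORC1 to the lysosome.

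Heat shock proteins are chaperones: they bind unfolded chains, keep them from aggregating and let them fold. In the cytosol HSP70 proteins work with J-domain partners (HSP40), which deliver clients, and with HSP110 proteins, which exchange the nucleotide, and pass some clients on to HSP90. Each family has forms made at all times, such as Hspa8 and Hsp90ab1, and forms that heat or protein damage induces, such as Hspa1a, Hspa1b and Hsp90aa1. The inducing factor is HSF1, which binds heat shock elements, alternating inverted copies of the letters GAA. Macrophages hold large amounts of the constitutive forms. The list is not cytosolic throughout: Hspd1 (HSP60) and Hspe1 (HSP10) form the chaperonin of the mitochondrial matrix, and Hsf1 encodes the factor and not a chaperone.

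Sequences upstream of 4 of the genes are shown because these genes are near-identical copies (Hspa1a and Hspa1b) or a head-to-head pair (Hspd1 and Hspe1), and 3 of the 4 calls among the members fall on them. The windows come from RefSeq (GRCm38.p6) and run 5′ to 3′. Hspa1a and Hspa1b are single-exon genes on the minus strand of chromosome 17, and the 250 bases before their starts differed at 3 positions. Capitals mark the match to the paired unit GAANNTTC, which begins 104 bases before each start.
Hspa1a, chr17:34972157-34972406, minus strand: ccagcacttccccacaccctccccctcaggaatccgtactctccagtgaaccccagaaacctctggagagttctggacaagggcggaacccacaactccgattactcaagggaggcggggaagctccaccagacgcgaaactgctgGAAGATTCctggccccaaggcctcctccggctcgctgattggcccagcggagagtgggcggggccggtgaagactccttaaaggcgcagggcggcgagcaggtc
Hspa1b, chr17:34959239-34959488, minus strand: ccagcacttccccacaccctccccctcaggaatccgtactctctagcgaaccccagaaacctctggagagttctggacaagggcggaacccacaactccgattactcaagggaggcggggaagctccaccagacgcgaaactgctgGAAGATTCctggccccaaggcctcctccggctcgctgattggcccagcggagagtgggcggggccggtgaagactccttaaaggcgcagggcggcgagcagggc
Hspd1 (minus strand) and Hspe1 (plus strand) lie head to head on chromosome 1, and their annotated spans overlap by 112 bases. RefSeq gives Hspd1 more than 1 start. A run of 4 alternating units (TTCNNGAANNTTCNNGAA) lies 72 bases before the start of Hspe1 and 127 bases before the Hspd1 start at 55087932. The Hspd1 start at 55088243, where its annotated span ends, lies on the other side, so that the run is inside the gene as counted from there. It is in capitals here.
Hspd1 and Hspe1, chr1:55088053-55088082, plus strand: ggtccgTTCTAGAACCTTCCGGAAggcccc

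These patterns were searched in the windows from 250 bases before to 50 bases after each start, for the 6 members that had one; Hspa8, Hsp90aa1, Hsp90ab1 and Hsf1 had none. The paired units GAANNTTC and TTCNNGAA read the same on both strands, and the longer runs, which contain them, were searched in both orders. A paired unit was present for 5 of the 6 members and in 15.1% of all 32851 windows. A run of 3 units (GAANNTTCNNGAA or TTCNNGAANNTTC) was present for Hsph1, Hspd1 and Hspe1 and in 0.603% of windows. A run of 4 units was present for Hspd1 and Hspe1, the same stretch in both, and in 8 windows in all. Neither Dnajb1 window held a match, nor did the window of the Hspd1 start at 55088243. A match describes the letters and not binding. Only exact units were searched, so the lack of a match does not show that a window lacks a heat shock element. Of the 68 other tested genes with a run of 3 units, 2 rose and 6 fell in the knockdown (11.8%). The share called was 12.8% among the 11821 tested genes outside the members that had a window, and 11.3% among all 18164 genes tested.

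Libraries held between 26.0 and 28.0 M read pairs, with 75.8 to 83.2 M estimated counts each. Lamtor5 was at 25.5, 27.1 and 24.8 FPKM (fragments per kilobase, scaled to library size, a level per length) in the knockdown libraries and at 55.9, 54.5 and 56.2 in WT, that is 46.5% of the WT mean. The library labelled knockdown replicate 3 stood apart in Lyz2, the gene of the LysM locus, with 73.6 FPKM against 10650 to 29379 in the other 5, so each call among the members is also given without it. Of 8 macrophage markers 5 fell and 1 rose. Calls here and for the other markers stand beside 11.3% of all genes (4.87% higher, 6.46% lower). The 8 summed to 1982 to 13192 FPKM in the knockdown and 24237 to 31370 in WT. Lyz2 carried that sum: without it the other 7 summed to 1746 to 1908 FPKM in the knockdown and 1782 to 1991 in WT, which overlap. That overlap hides opposite changes. Cd68, the largest of the 7, rose from a mean of 946 FPKM in WT to 1415 in the knockdown. Csf1r, Adgre1, Itgam, Fcgr1 and Cd14 fell, to between 22.3% (Fcgr1) and 52.7% (Itgam) of the WT mean. The T cell markers Cd3d, Cd3e and Cd3g summed to at most 0.0405 FPKM, with Cd3g listed at 0 counts throughout. The neutrophil markers summed to 67.8 to 117 FPKM in the knockdown and 85.9 to 130 in WT, with 1 of 6 (Mpo) called higher. In the same order of groups the sums were 0.386 to 2.66 and 3.04 to 4.73 for B cells, 3.03 to 7.96 and 1.17 to 2.45 for mast cells and basophils (1 of 4 higher), and 1.33 to 7.67 and 0.315 to 0.572 for erythroid cells (1 of 3 higher). They were 0.119 to 0.324 and 0.132 to 0.306 for dendritic cells and 0.168 to 2.65 and 0.655 to 2.55 for fibroblasts. Their part in the results below was not tested, and in bulk RNA fewer cells of a type cannot be told apart from less RNA per cell.

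The members did not move as 1 block. In edgeR's quasi-likelihood test with Benjamini-Hochberg adjustment, 3 of the 10 rose in the knockdown (Hspe1, Hspd1 and Hsp90ab1) and 1 fell (Hspa1b), a share to be read beside the 11.3% of all genes that passed (4.87% higher, 6.46% lower). The median log2 fold change of the members was 0.06, and that of all genes tested was 0.02. In 6 members the FPKM of the groups did not overlap, beside 37.6% of all genes: 4 were higher in the knockdown (16.3% of all genes) and 2 lower (21.3%). The number of members called changed with the libraries kept, as did that of all genes. Dropping any of the knockdown libraries left 1 member called. Dropping WT replicates 1, 2 and 3 in turn left 3, 0 and 2. Of all genes 2058 were called with every library kept. Counted anew in each fit, dropping knockdown replicates 1 to 3 in turn gave 377, 1130 and 781 calls, and dropping WT replicates 1 to 3 gave 2334, 0 and 625. Without WT replicate 2 edgeR called 0 genes in the whole table (smallest adjusted p 0.0616, and 4065 genes at an unadjusted p under 0.05). DESeq2 without that library called 2247, Hspa1b and Hspe1 among them.

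**Figure D1:**
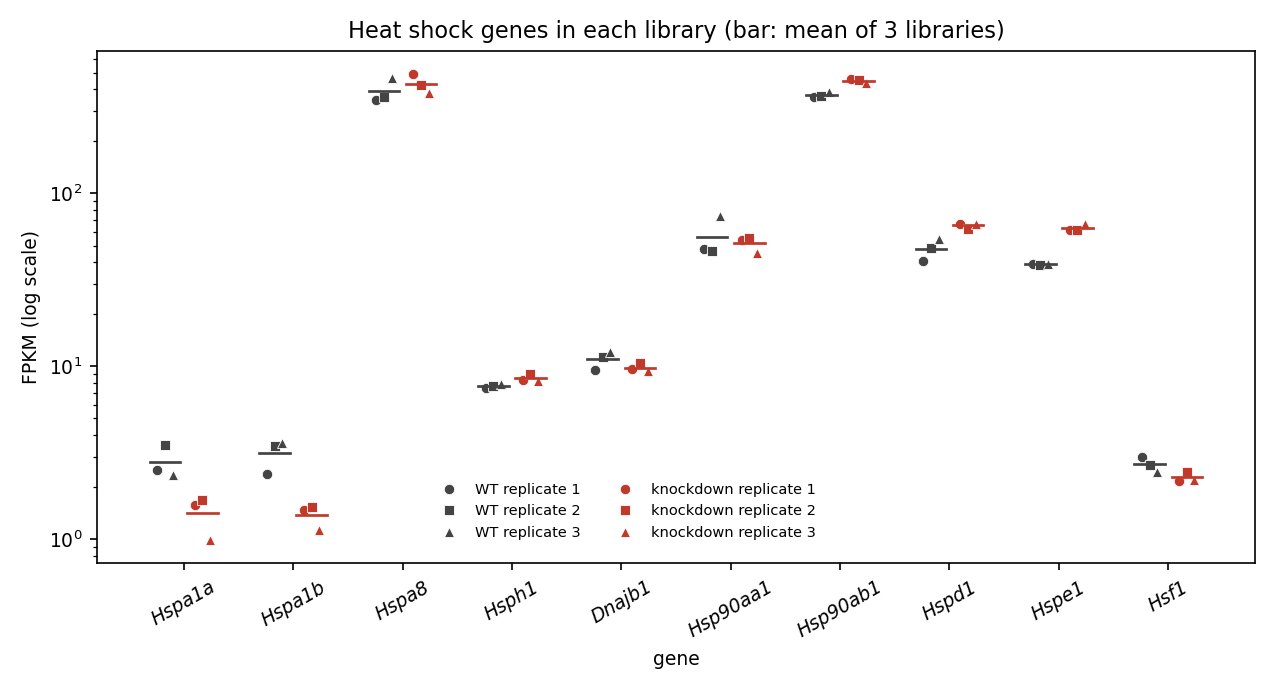
FPKM (log axis) of the 10 genes in each of the 3 WT (grey) and 3 knockdown (red) libraries, with marker shapes for replicates 1 to 3 and bars for the means. Hspa8 and Hsp90ab1 sit at 346 FPKM or more in every library and Hspa1a, Hspa1b and Hsf1 at 3.61 or less; the groups are apart for Hspa1a, Hspa1b, Hsph1, Hsp90ab1, Hspd1 and Hspe1.

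**Figure D2:**
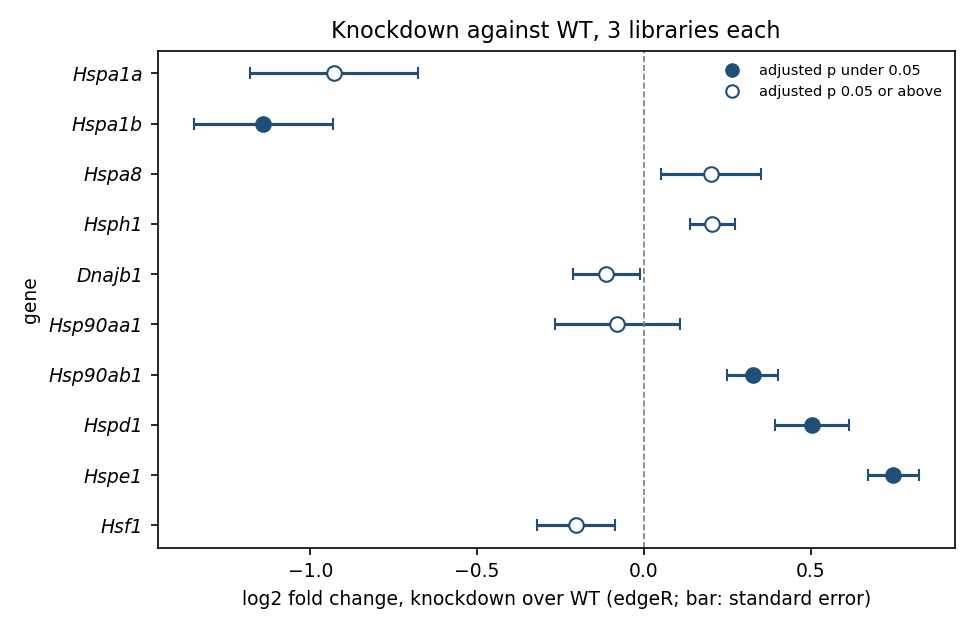
log2 fold change, knockdown over WT, from edgeR with its standard error for the 10 genes; filled points passed an adjusted p of 0.05. Hspa1a and Hspa1b lie to the left at -0.93 and -1.14, and Hsp90ab1, Hspd1 and Hspe1 to the right at 0.33, 0.50 and 0.75.

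Levels per length differed widely, with the constitutive cytosolic forms on top. In WT the order of mean FPKM was Hspa8 (389.7 ± 64.1, SD, n = 3), Hsp90ab1 (370.5 ± 11.5), Hsp90aa1 (56.3 ± 15.7), Hspd1 (47.7 ± 6.91), Hspe1 (38.9 ± 0.291), Dnajb1 (10.99 ± 1.31), Hsph1 (7.68 ± 0.174), Hspa1b (3.16 ± 0.671) and Hspa1a (2.80 ± 0.637), and Hsf1 (2.71 ± 0.278). Hspa8 and Hsp90ab1 overlapped in their ranges, as did Hsp90aa1 and Hspd1, and Hspa1b, Hspa1a and Hsf1; the other neighbours in this order did not. Hspa8 and Hsp90ab1 each exceeded 99.5% of tested genes, and Hspa1a, Hspa1b and Hsf1 were near the middle, above 51.7%, 54.0% and 51.1%. By mean FPKM in the knockdown Hsp90ab1 came first, Hspd1 and Hspe1 passed Hsp90aa1, and Hspa1a and Hspa1b ranked below Hsf1. The first place was not separated, since Hspa8 (381 to 490 FPKM) spanned all Hsp90ab1 values (436 to 457) there.

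Of the stress-inducible HSP70 genes Hspa1b fell in the knockdown and Hspa1a did not pass the test. Hspa1b (ENSMUSG00000090877, GRCm38 chromosome 17, 34956436 to 34959238) was at 1.48, 1.55 and 1.13 FPKM in knockdown replicates 1 to 3 and at 2.39, 3.49 and 3.61 in WT replicates 1 to 3. All knockdown libraries lay below all WT libraries, with 282 to 382 estimated counts against 624 to 942. This is a log2 fold change of -1.14 (SE 0.21, edgeR adjusted p = 0.0218), a level of 43.7% of WT in mean FPKM. Dropping knockdown replicate 1, 2 or 3 gave an adjusted p of 0.0636, 0.0520 or 0.0614, and dropping WT replicate 1, 2 or 3 gave 0.0152, 0.0927 or 0.0691, with log2 fold changes of -1.30 to -1.02.

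Hspa1a (ENSMUSG00000091971, chromosome 17, 34969190 to 34972156), which encodes the same inducible chaperone, was at 1.59, 1.69 and 0.995 FPKM in the knockdown and at 2.51, 3.53 and 2.36 in WT. The groups did not overlap here either, with the lowest value in knockdown replicate 3. The log2 fold change of -0.93 (SE 0.25) missed the threshold in edgeR (adjusted p = 0.0593) and passed it with DESeq2 (adjusted p = 0.00491). With each library left out in turn, edgeR's adjusted p was 0.0797 to 0.188. The copies are hard to separate: of the windows as long as a read (141 bases, from the trimming logs) in the Hspa1b transcript, 42.0% also occur in Hspa1a, so the split of reads between them is uncertain. With their counts summed to 1 feature the log2 fold change was -1.03 (SE 0.20, edgeR adjusted p = 0.0239). The neighbour Hspa1l, a related HSP70 gene on the opposite strand, was at 1.14 to 1.87 FPKM in the knockdown and 1.23 to 1.35 in WT (log2 fold change 0.25, adjusted p = 0.526).

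Immediate early genes, which cells switch on within a short time of a stimulus, were mostly lower. The list, like the others, was chosen with earlier results of these data known. Of 18 such genes 11 fell and 1 rose (66.7%), beside 11.3% of all genes (4.87% higher, 6.46% lower). The median log2 fold change of the 18 genes was -1.20. Their FPKM summed to 424 to 577 in the knockdown and 875 to 948 in WT. Dusp1, a phosphatase gene that shuts off MAP kinases, went from 19.5 ± 4.34 FPKM in WT to 5.01 ± 1.34 in the knockdown (mean ± SD, n = 3, a log2 fold change of -1.90). Zfp36, Btg2 and Klf4 fell by 1.63, 1.32 and 1.01 on the log2 scale, and the 1 gene that rose was Atf3 (0.79), named after its value was seen. The number called was 6 without knockdown replicate 1 or 2 and 0 without WT replicate 2, where no gene of the table passed. Their part in the fall of Hspa1b was not tested.

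The constitutive HSP70 gene Hspa8 (HSC70; ENSMUSG00000015656, chromosome 9, 40800984 to 40810087) did not pass the test. It was at 490.2, 425 and 381 FPKM in the knockdown and at 346, 359.9 and 463 in WT. The groups overlapped, since WT replicate 3 was higher than knockdown replicates 2 and 3. The fitted log2 fold change was 0.20 (SE 0.15, adjusted p = 0.419). Hspa8 has annotated processed copies that share read-length windows with it, and Gm15459 among them took 26709 estimated counts in knockdown replicate 2 against 3963 to 13075 in the other libraries. With the counts of 4 such copies added, a setting chosen after the data were seen, the log2 fold change was 0.24 (SE 0.14, adjusted p = 0.305).

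Within each library the inducible pair was also set against Hspa8 as a ratio of FPKM. Hspa1a and Hspa1b together came to 0.626, 0.760 and 0.557% of the Hspa8 FPKM in the knockdown and to 1.42, 1.95 and 1.29% in WT. The groups did not overlap. The difference of the mean log2 ratios was -1.25, with SDs of 0.23 in the knockdown and 0.31 in WT (exact two-sided permutation test, p = 0.1, also after adjustment over the 2 ratios compared, and the smallest value that 3 against 3 can give).

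Neither HSP70 partner passed the test. Dnajb1 (ENSMUSG00000005483, chromosome 8, 83608193 to 83612653), the inducible J-domain protein that hands clients to HSP70, was at 9.65, 10.4 and 9.40 FPKM in the knockdown and 9.54, 11.3 and 12.1 in WT. WT replicate 1 lay inside the knockdown range, and the log2 fold change was -0.11 (SE 0.10, adjusted p = 0.506). Hsph1 (HSP110; ENSMUSG00000029657, chromosome 5, 149614287 to 149636376), the nucleotide exchange factor, was at 8.40, 9.01 and 8.28 FPKM in the knockdown and at 7.52, 7.66 and 7.86 in WT. The groups were apart by a small margin and in the opposite direction from Hspa1a and Hspa1b, but the log2 fold change of 0.21 (SE 0.067) did not pass (adjusted p = 0.0950). No read-length window of the Dnajb1 or Hsph1 transcript occurred in another annotated gene.

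Of the cytosolic HSP90 genes the constitutive one rose. Hsp90ab1 (ENSMUSG00000023944, chromosome 17, 45567775 to 45573271) was at 457, 454 and 436 FPKM in the knockdown and at 362, 365 and 384 in WT. Every knockdown library was above every WT library, and both groups were tight, at 449 ± 11.6 and 370.5 ± 11.5 FPKM (mean ± SD, n = 3). Its log2 fold change was 0.33 (SE 0.075, edgeR adjusted p = 0.0396). This was the smallest change called among the members, and it did not pass when any library was left out: for knockdown replicates 1 to 3 the adjusted p became 0.104, 0.0810 and 0.0700, and for WT replicates 1 to 3 it became 0.0552, 0.170 and 0.0848 (log2 fold changes 0.29 to 0.34).

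The inducible form Hsp90aa1 (ENSMUSG00000021270, chromosome 12, 110690605 to 110702728) was at 54.0, 55.4 and 45.1 FPKM in the knockdown and at 48.0, 46.5 and 74.4 in WT. WT replicate 3 stood above all other libraries, and the remaining WT libraries lay inside the knockdown range. The log2 fold change was -0.08 (SE 0.19, adjusted p = 0.815) and 0.16 without WT replicate 3. Of the Hsp90aa1 read-length windows 37.9% also occur in other annotated genes. Gm12346 among those genes took 209 estimated counts in WT replicate 1 and 1831 in WT replicate 3. With counts of annotated copies added, chosen after the data were seen, the log2 fold change was -0.05 (SE 0.20, edgeR adjusted p = 0.882). As a ratio, Hsp90aa1 FPKM was 11.8, 12.2 and 10.4% of Hsp90ab1 FPKM in the knockdown and 13.3, 12.7 and 19.4% in WT. These ratios did not overlap between groups either, with a difference of -0.38 in mean log2 ratio (exact two-sided permutation test, p = 0.1, the smallest possible). Without WT replicate 3 it was -0.18 (exact permutation test, p = 0.2, the smallest possible for 3 against 2).

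**Figure D3:**
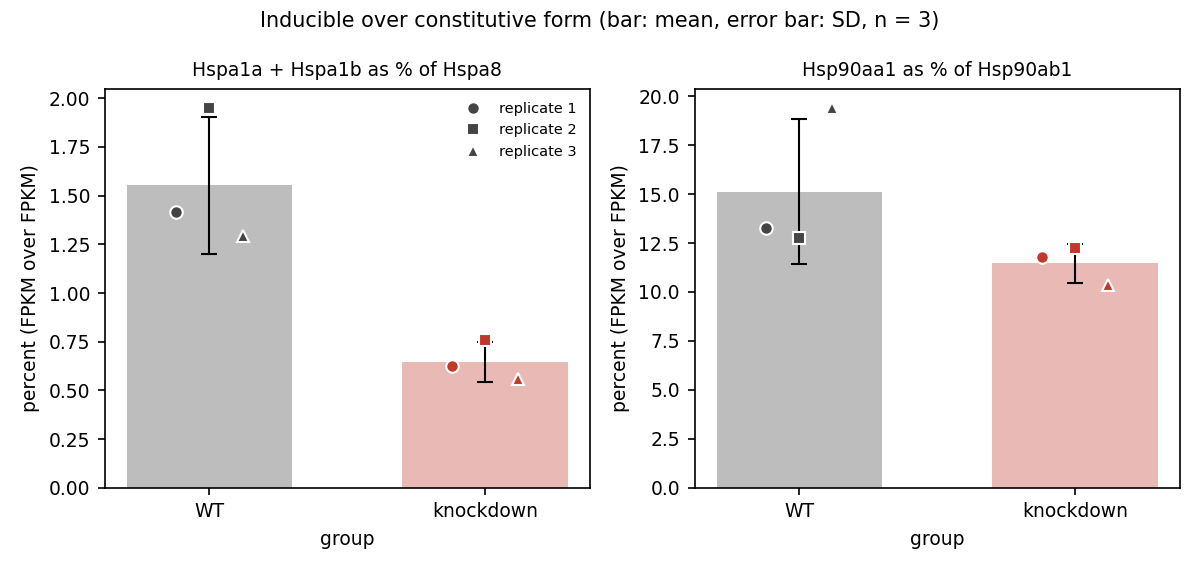
Left, the summed FPKM of Hspa1a and Hspa1b as a percent of Hspa8; right, the FPKM of Hsp90aa1 as a percent of Hsp90ab1; bars are means, error bars SDs and points the 3 libraries of each group. The left ratios are 0.557 to 0.760% in the knockdown and 1.29 to 1.95% in WT; the right ratios are 10.4 to 12.2% and 12.7 to 19.4%.

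Both mitochondrial chaperonin genes rose. Hspe1 (ENSMUSG00000073676, chromosome 1, 55088132 to 55091307), the lid of the folding chamber, was at 61.4, 61.6 and 66.3 FPKM in the knockdown and at 39.2, 38.6 and 39.0 in WT. The WT libraries lay close together, and all knockdown libraries were above them. This gave a log2 fold change of 0.75 (SE 0.076, edgeR adjusted p = 0.00963), or 1.62-fold in mean FPKM. It passed in 12 of 13 alternative settings. Without WT replicate 2 the edgeR adjusted p was 0.0616, and no gene of the table went below that value in this setting. Of the Hspe1 read-length windows 15.3% also occur in AC117239.2, a gene without values here.

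Hspd1 (ENSMUSG00000025980, chromosome 1, 55077835 to 55088243), the barrel of that chamber, was at 66.6, 62.7 and 66.6 FPKM in the knockdown and at 40.5, 48.3 and 54.3 in WT. The knockdown libraries were again all higher, and the WT libraries were spread more widely than for Hspe1. Its log2 fold change was 0.50 (SE 0.11, edgeR adjusted p = 0.0348). With knockdown replicate 1, 2 or 3 dropped, the adjusted p was 0.0985, 0.0609 or 0.0957, and with WT replicate 1, 2 or 3 dropped it was 0.0474, 0.130 or 0.0464. The level of Hspd1 over that of Hspe1 was 1.08, 1.02 and 1.004 in the knockdown and 1.03, 1.25 and 1.39 in WT. Of the Hspd1 read-length windows 19.7% also occur in the processed copy Hspd1-ps3, and with its counts added, chosen after the data were seen, the log2 fold change was 0.44 (adjusted p = 0.0471). Use of strand in counting is not given in the sources used here, so reads in the overlap of Hspd1 and Hspe1 may count for either.

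Hsf1 (ENSMUSG00000022556, chromosome 15, 76477422 to 76501913), the factor that drives the inducible genes, was low in both groups, at 2.17, 2.45 and 2.22 FPKM in the knockdown and at 3.004, 2.68 and 2.45 in WT. The highest knockdown library and the lowest WT library were level. The log2 fold change was -0.20 (SE 0.12, adjusted p = 0.291). HSF1 is controlled mainly as a protein, which was not measured.

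**Figure D4:**
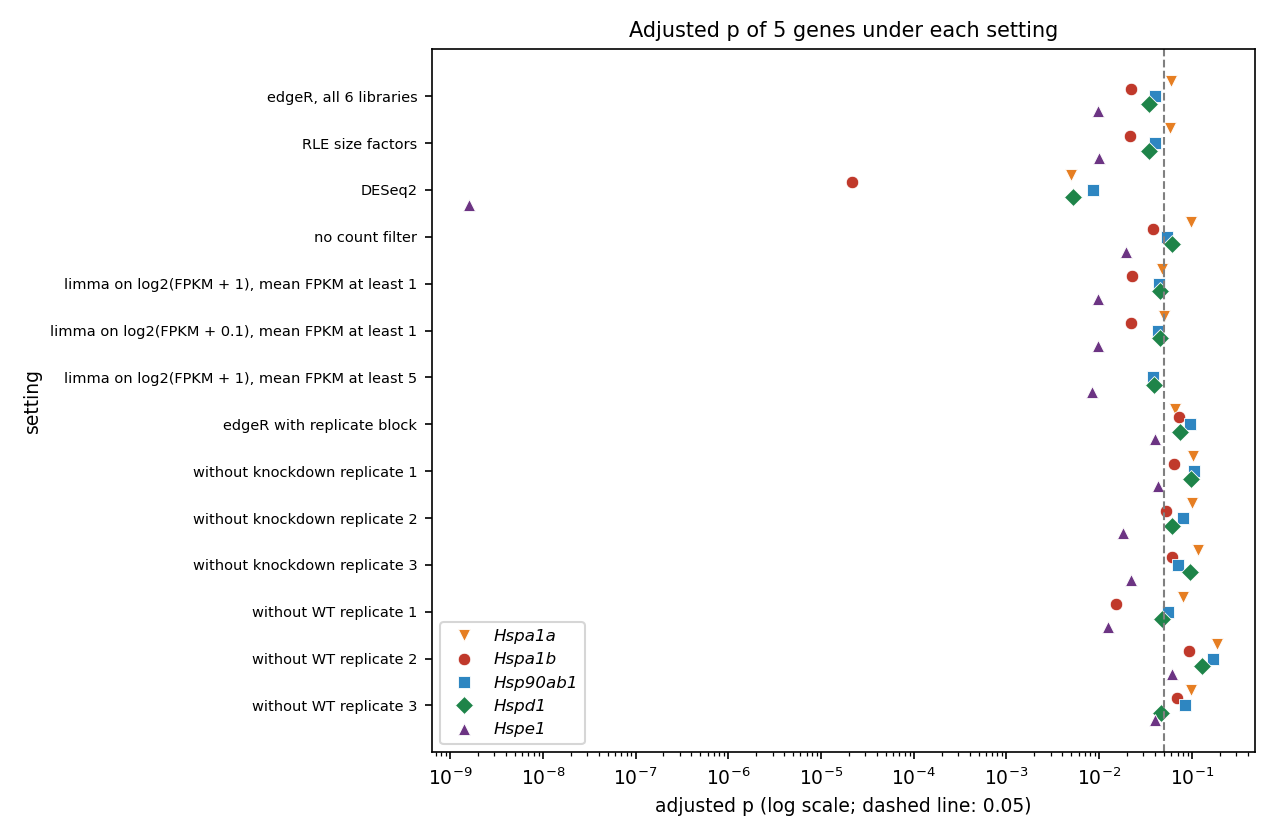
Adjusted p (log axis) of Hspa1a, Hspa1b, Hsp90ab1, Hspd1 and Hspe1 with edgeR on all 6 libraries and under 13 other settings; the dashed line is 0.05. Hspe1 lies left of the line in all settings but the one without WT replicate 2, where no gene of the table passed. Hspa1b, Hsp90ab1 and Hspd1 lie right of it in most settings that leave out a library, and Hspa1a in all of those.

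Single genes of the wider chaperone network changed. Of 85 tested genes in 9 lists of families and co-chaperones 7 rose and 1 fell, that is 9.41%. Among all genes 11.3% were called (4.87% higher, 6.46% lower). The median log2 fold change of the 85 genes was 0.09. Dropping knockdown replicates 1 to 3 in turn left 3, 4 and 4 calls, and dropping WT replicates 1 to 3 left 12, 0 and 3. Among 8 further HSP70 and HSP110 genes Hspa2, a form best known from testis, was at 2.85 ± 0.375 FPKM in WT and rose to 4.34 ± 0.171 (mean ± SD, n = 3, a log2 fold change of 0.65, edgeR adjusted p = 0.0369), and Hspa14, a ribosome-associated form, fell from 10.1 ± 1.39 to 7.07 ± 0.573 FPKM (-0.47, adjusted p = 0.0435). Of 16 J-domain genes Dnajb6, a strong suppressor of aggregation, rose from 15.3 ± 0.827 to 23.95 ± 1.38 FPKM (0.70, adjusted p = 0.0113). Of 9 HSP70 co-chaperones St13 (HIP), which holds HSP70 on its client, rose (0.40, adjusted p = 0.0207). Of 16 HSP90 co-chaperones Ppid, the cyclophilin 40 gene, rose from 5.50 ± 0.189 to 8.15 ± 0.658 FPKM (0.61, adjusted p = 0.0141).

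Smaller groups gave 1 call at most, to be read beside the 11.3% of all genes called (4.87% higher, 6.46% lower). Of 7 tested small heat shock protein genes (3 were under the filter) Hspb8 rose, from 0.145 to 0.478 mean FPKM (log2 fold change 1.73, adjusted p = 0.0430), a very low level; of 4 tested genes in the list of further heat shock factors and their binding protein (Hsf2, Hsf4, Hsf5 and Hsbp1) Hsf4 rose, with 0.546 ± 0.117 FPKM in WT and 2.06 ± 0.0621 in the knockdown (1.94, adjusted p = 0.0104). Of 6 prefoldin genes Pfdn2 rose (0.36, adjusted p = 0.0348). None of the 8 genes of TRiC, the cytosolic chaperonin, passed in edgeR, DESeq2 or limma. Of the 8, 2 had an unadjusted edgeR p under 0.05, beside 5484 of all 18164 genes tested. Cct2 had the smallest p (0.24, adjusted p = 0.0545). None of 11 further mitochondrial chaperone and protease genes passed in edgeR (1 at an unadjusted p under 0.05), and 1 did with DESeq2 and with limma; Hscb, a co-chaperone of iron-sulfur cluster assembly, had the smallest p (0.50, adjusted p = 0.0683, and 0.0292 without WT replicate 1). Dnajb6, Ppid and Hsf4 kept their calls when any library other than WT replicate 2 was left out. Without WT replicate 2 no gene of the table passed in edgeR (smallest adjusted p 0.0616). Their adjusted p was then 0.0616, 0.0771 and 0.0616. Hspa2, Hspa14 and Pfdn2 kept theirs without WT replicate 1 alone, St13 also without knockdown replicate 2, and Hspb8 without knockdown replicate 3 alone; the adjusted p in the other omissions was at most 0.148.

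Of 15 other targets that textbooks assign to HSF1 (10 of which are also in another list) 3 passed and 12 did not. That share of 20% stands beside 11.3% of all genes (4.87% higher, 6.46% lower). The 1 that rose was St13, and 2 fell, the collagen chaperone gene Serpinh1 from 2.50 ± 1.17 to 0.665 ± 0.234 FPKM (mean ± SD over 3 libraries, -1.85 on the log2 scale, edgeR adjusted p = 0.0350) and Ier5 from 27.7 ± 1.48 to 20.2 ± 2.23 FPKM (-0.41, adjusted p = 0.0419). Over all 15 targets the median log2 fold change was -0.06, and 7 had an unadjusted edgeR p under 0.05, beside 5484 of all 18164 genes tested. Of 15 chaperone genes of the endoplasmic reticulum, which answer to another stress pathway, 2 rose (13.3%, near the 11.3% of all genes), the calreticulin gene Calr (0.34) and the J-domain gene Dnajb9 (0.44), with a median of -0.06. Serpinh1 and Calr kept their calls without WT replicate 1 alone, and Ier5 and Dnajb9 lost theirs whichever library was left out (adjusted p up to 0.144). The 10 cell division genes all fell, beside 6.46% of all genes, by a median of 2.57 on the log2 scale. Log2 fold changes were -2.98 for Ccnb2, a mitotic cyclin gene, -2.44 for Aurka and -2.32 for Aurkb, which encode kinases of mitosis, and -2.45 for the spindle checkpoint kinase gene Bub1. Of the 10, 3 passed without knockdown replicate 1 and 7 without knockdown replicate 3 or WT replicate 3. The number was 0 without WT replicate 2, where no gene of the table passed. Their FPKM summed to 22.3 to 49.8 in the knockdown and 130 to 292 in WT, and the part of cell division in the changes of the chaperone genes was not tested.

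**Figure D5:**
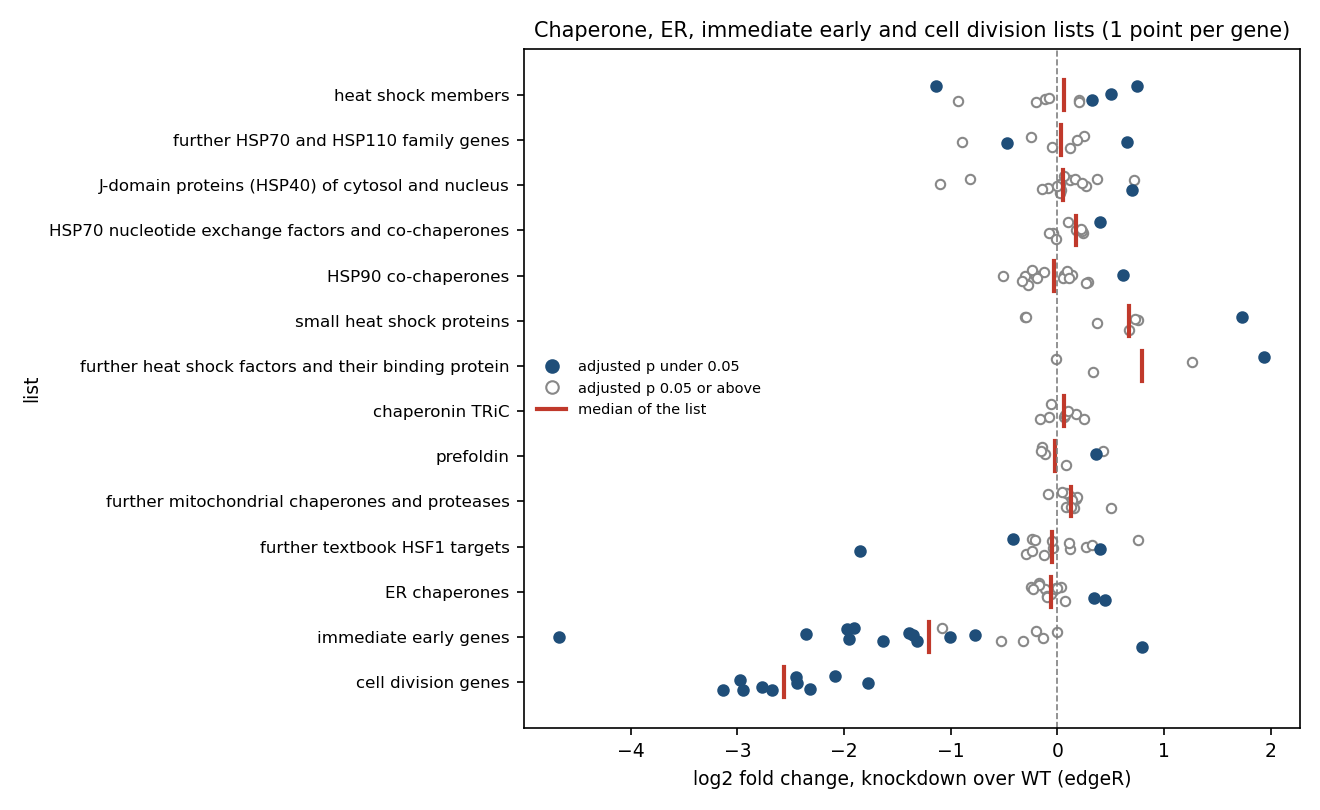
log2 fold change, knockdown over WT, of each tested gene in the 10 heat shock members and the 13 comparison lists; filled points passed an adjusted p of 0.05 and red bars are list medians. Of the chaperone lists the small heat shock proteins (7 genes) and further heat shock factors (4 genes) have medians of 0.67 and 0.80, with 1 gene called in each. Both medians rest on genes that were not called: Hspb7 (at most 0.0906 FPKM), and Hsbp1 with Hsf5 (at most 0.186 FPKM for Hsf5). The other chaperone lists lie nearer 0, whereas most immediate early and all cell division genes lie to the left, with medians of -1.20 and -2.57.

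The genes whose log2 CPM (counts scaled to library size) ran closest to the summed Hspa1a and Hspa1b over the 6 libraries, among 6601 genes with a mean of at least 5 FPKM, were Eml3 (Pearson r 0.999), Milr1 (0.996), Sp100 (0.995), Ube2j1 (0.994) and Heatr6 (0.993). These values describe 6 libraries that fall into the study's 2 groups, and they are the highest of many. Milr1, an inhibitory receptor gene of mast cells and other myeloid cells, was at 14.7, 16.7 and 11.9 FPKM in the knockdown and at 21.7, 30.5 and 26.6 in WT. The knockdown libraries lay below the WT libraries, as they did for the summed pair it was chosen to resemble, so its difference between the groups is a description and carries no test. Sp100, a nuclear body gene, was at 6.41 to 8.64 FPKM in the knockdown and 12.001 to 14.2 in WT. Eml3, Ube2j1 and Heatr6 followed the same order of libraries over a smaller range, for Eml3 from 12.2 to 13.5 FPKM in the knockdown and 14.2 to 15.5 in WT.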

How the data were processed

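The authors deposited 1 table of 55401 genes with a count and an FPKM column per library, per the file headers. The deposited count values are whole numbers and were treated as estimated counts. They sum to 2.95 to 3.01 per read pair kept, so a count does not stand for 1 fragment. Intervals for single counts were therefore not made. The counts were used as deposited, so edgeR and DESeq2 may understate the sampling noise of low counts, which was not tested. GRCm38 (mm10) is the build in the submitters' processing notes; adapters were removed with cutadapt 1.9 (minimum length 100 bases), per the file headers of the logs. Aligner, counter, annotation release and strand use: not given in the sources used here. Depth was 26.0 to 28.0 M read pairs per library.

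Groups were compared with edgeR 4.0.16 in R 4.3.3: filterByExpr (minimum count 10), TMM, a quasi-likelihood fit on group, and Benjamini-Hochberg adjusted p over 18164 genes, threshold 0.05. The SE is the log2 fold change over the square root of F. The script was tested on simulated data. FPKM is given as mean ± SD over 3 libraries; a p-value reflects only how these libraries vary, which may be technical. FPKM ratios were tested by exact permutation (scipy 1.17.1). Read-length windows were compared with GENCODE M21 transcripts (the longest coding transcript of each member). Alternatives were RLE, DESeq2 1.42.0, no count filter, limma 3.58.1 on log2(FPKM + 1) or log2(FPKM + 0.1), a replicate block, each library left out, and summed counts of copies.

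All 10 members are named; from each list the genes past the threshold (at most 4 with the smallest p) or, where none passed, the 1 with the smallest p; and the 5 genes most like Hspa1a + Hspa1b. The members and lists were chosen with earlier results of these data known.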

Additional observations from a re-analysis of the deposited data

How the results depend on the processing

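Across all genes the number called was 2058, and 3635 with DESeq2, 1205 without a count filter and 0 to 2334 with each library left out; of the heat shock members 4 were called, 2 without a count filter and 0 to 3 with each library left out; of the chaperone lists 8 genes, 15 with DESeq2, 4 without a count filter and 0 to 12 with each library left out. Without a count filter Hsp90ab1 (0.32) and Hspd1 (0.50) missed the threshold. Hspa1a passed with DESeq2 (-0.94), with limma on log2(FPKM + 1) (-0.65) and log2(FPKM + 0.1) (-0.94), and summed with Hspa1b (-1.03). With each library left out, the log2 fold change was -1.30 to -1.02 for Hspa1b, 0.29 to 0.34 for Hsp90ab1, 0.41 to 0.60 for Hspd1 and 0.70 to 0.79 for Hspe1. No called member changed sign in any setting run. The cause of these differences was not tested, beyond the smaller number of libraries.

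The groups share replicate numbers, but same-numbered libraries did not deviate together (r of deviations 0.046, 0.036 and -0.011 for numbers 1 to 3), so the numbers were taken as names. Replicates 1 and 2 correlated best with their own number, and knockdown replicate 3 did not. With the replicate number as a block edgeR called 728 genes, 1 member (Hspe1) and 2 genes of the chaperone lists; Hspa1b (-1.13), Hsp90ab1 (0.33) and Hspd1 (0.51) were then not called. Hspa1a and Hspa1b rest on 264 to 975 estimated counts per library, which limits their precision.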
